A study of Mus musculus with 13 samples.

Results

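Total histone H3 was measured by chromatin immunoprecipitation and sequencing (ChIP-seq) in 4 of the 13 libraries of the series. The 4 libraries were chosen by their antibody label, H3, and are 2 from wild-type (WT) and 2 from safb1/2 double ko (DKO) mouse embryonic stem cells (ESCs). The other 9 libraries, 5 of WT and 4 of DKO, hold H3K27me3 and are given only beside H3. All cells are of the label strain CAST/B6 Male Rosa26-RMCE, that is, male cells from a cross of CAST and B6 mice with a cassette at Rosa26, and both genotypes had 3 days of doxycycline. Both DKO H3 libraries came from clone 13, so the clone and the genotype cannot be told apart in H3. No label ties the replicates to separate cultures. The p-values therefore reflect the spread among these 4 libraries alone, which may be technical.

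Histone H3 is a core protein of the nucleosome, the unit around which DNA is wrapped, and an antibody to all H3 reads how much nucleosome-bound DNA a stretch of the genome yields. H3K27me3 is the form of H3 that Polycomb repressive complex 2 methylates at lysine 27, and in ESCs it covers silent regulators of development such as the Hox genes. SAFB and SAFB2 are nuclear proteins that bind RNA and were first described by their binding to DNA elements attached to the nuclear scaffold. Total H3 is commonly used as the reference against which a histone mark is read. H3 read counts rise both with the number of DNA copies and with nucleosomes per copy. No input DNA was used here, so these cannot be told apart.

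H3 reads were counted only over 57909 regions called for H3K27me3 in either genotype, of which the authors' lists name 28174 as shared, 18837 as DKO-specific and 10898 as WT-specific. The regions held 636691 and 699720 H3 counts in WT and 525847 and 736566 in DKO, a median of 6 counts per region and library. Levels are given as region counts scaled to CPM and divided by the length of the region (CPM per kb). This puts chromosomes, windows and regions of unequal length on a common scale. Division by length does not correct for reads that cross a region edge, so short and long regions may not be strictly comparable. Pairs of libraries of the same genotype differed little beyond counting noise, with a chi-square per degree of freedom of 1.06 for WT and 1.09 for DKO, against 1.13 to 1.14 between genotypes. Over 10 Mb windows off chromosome 11 it was 1.21 for WT and 1.48 for DKO, against 1.20 to 1.68 between genotypes, so there the DKO pair differed by more than 2 of the 4 pairs across genotypes did. Against the ESC label, all 8 lineage genes checked, Hoxa9 and Pax6 among them, had a region over their start, as did 1 of 8 ESC genes, Esrrb. Of 6 fibroblast genes 4 had one. A region shows the mark and not expression. No region covers the start of Safb or Safb2, so H3 counts could not check the genotype.

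Chromosome 11 was the one chromosome called higher in DKO. Its 3836 regions held 13.4 and 13.5 CPM per kb in the WT libraries and 16.8 and 16.4 in the DKO libraries. Both DKO libraries lay well above both WT libraries. The mean rose from 13.5 ± 0.0751 (SD, n = 2) to 16.6 ± 0.304 (SD, n = 2), 1.23-fold, at 0.30 on the log2 scale with SE 0.011 (edgeR quasi-likelihood F test, adjusted p = 8.83e-27). With chromosome M counted, of 21 chromosomes tested, 5 passed an adjusted p of 0.05 (23.8% called), 1 higher (4.76%) and 4 lower (19%). The 4 lower ones were chromosome 6 at -0.040, chromosome 9 at -0.045, chromosome 10 at -0.043 and chromosome 17 at -0.038 on the log2 scale. All 4 were within 0.05 of no change and did not pass when the scaling left out chromosomes 6, 11 and X, while chromosome 11 did. Chromosome 11 was also the only call with any 1 library left out. DESeq2 called chromosomes 11 and 6 and not 9, 10 or 17.

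Levels relative to reference autosomes (the autosomes other than 6, 8, 11 and the chromosome itself, without 6 regions of extreme level described further on) need no scaling between libraries. Chromosome 11 stood at 1.05 and 1.06 times these autosomes in WT and at 1.35 and 1.31 in DKO. The exact permutation p was 0.333, the smallest that 4 libraries allow (two-sided). The 16 autosomes other than 6, 8 and 11 stood between 0.944 and 1.07 in all 4 libraries. Chromosome X, of which male cells have a lone copy, stood at 0.533 and 0.517 in WT and 0.523 and 0.517 in DKO. Chromosome X thus lay near the same level in every library, and its log2 fold change of -0.036 (SE 0.027) did not pass (edgeR adjusted p = 0.26). Chromosome 8 stood at 1.41 and 1.41 in WT and at 1.40 and 1.42 in DKO, above every other autosome in all 4 libraries, with overlapping genotypes.

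**Figure D1:**
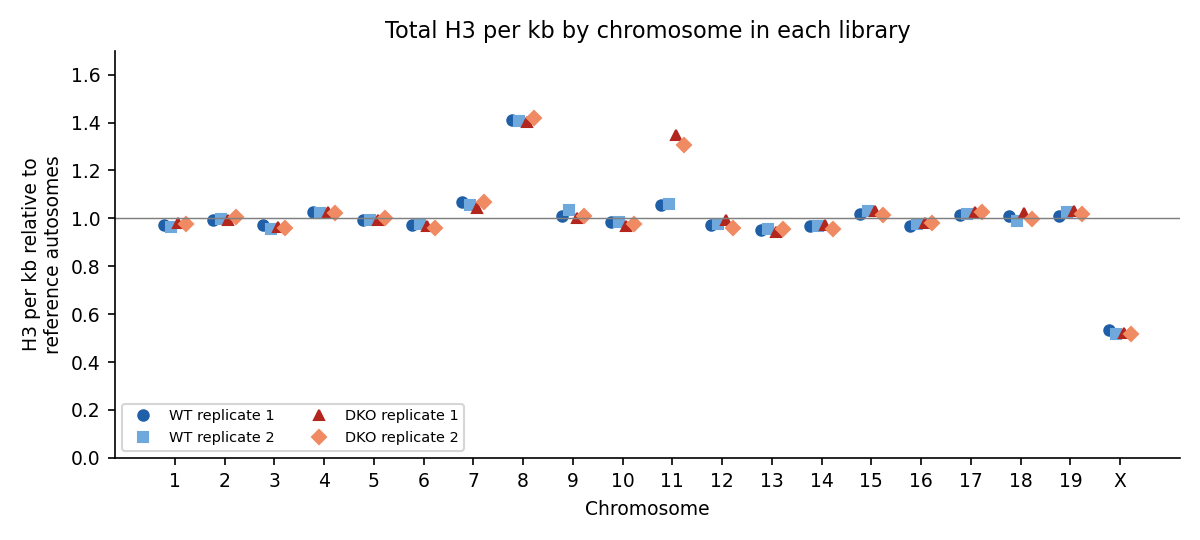
Total H3 per kb on each chromosome (x axis) divided by that on the reference autosomes (y axis, a ratio without unit), 1 point per library. Chromosome 11 is at 1.05 and 1.06 in WT and 1.35 and 1.31 in DKO, chromosome 8 is near 1.41 in all 4 libraries, and X is at 0.517 to 0.533.

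Chromosome 11 was higher along its whole length. Counts were summed over windows of 10 Mb, and 20 of 273 windows passed (7.33% called), 14 higher in DKO (5.13%) and 6 lower (2.2%). All 13 windows of chromosome 11 were among the 14 that rose. Their log2 fold changes ran from 0.20 at 40 to 50 Mb to 0.33 at 50 to 60 Mb, with a median of 0.30. At 50 to 60 Mb the level was 12.9 and 13.3 CPM per kb in WT and 16.6 and 16.3 in DKO, a log2 fold change of 0.33 and an SE of 0.029 (edgeR adjusted p = 1.39e-25). At 90 to 100 Mb, the window of the HoxB cluster, it was 13.1 and 13.2 in WT and 16.7 and 16.2 in DKO, at 0.32 with SE 0.019 (edgeR adjusted p = 2.32e-48). Of the windows that passed, the other 4 of the 6 largest rises were the windows at 10, 20, 70 and 120 Mb, at 0.31 to 0.32. In none of the 13 windows did the genotypes overlap. Windows of 5 Mb on this chromosome were higher in DKO in 25 of 25, by 0.19 to 0.39 on the log2 scale.

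**Figure D2:**
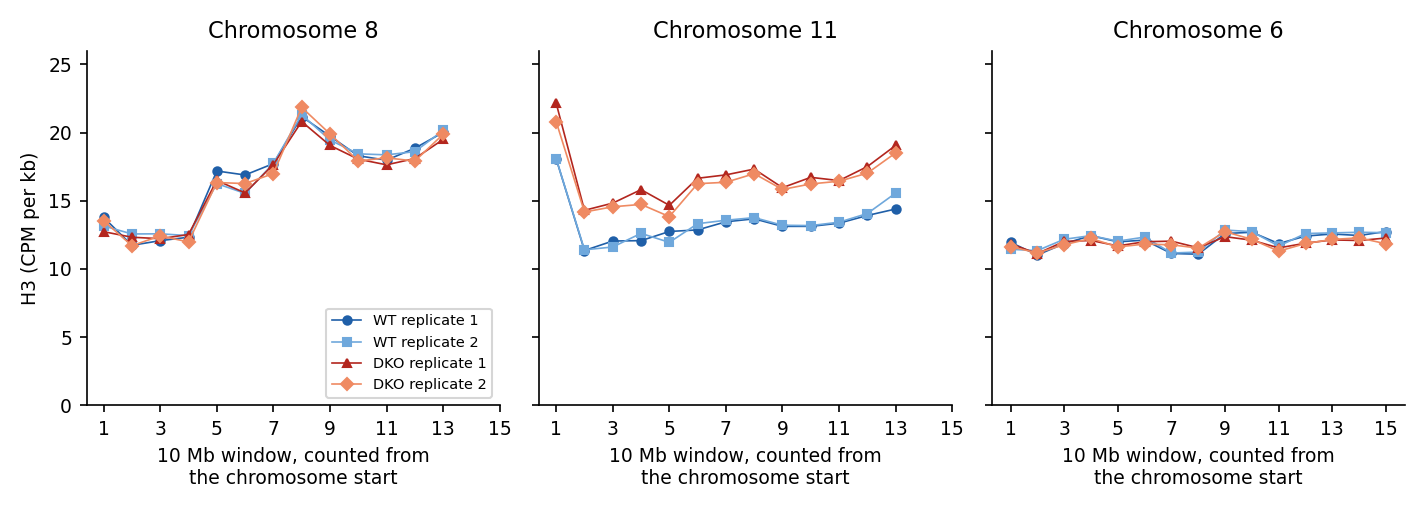
H3 level (CPM per kb, y axis) in successive 10 Mb windows counted from the chromosome start (x axis) on chromosomes 8, 11 and 6, 1 line per library. The DKO lines lie above the WT lines in all 13 windows of chromosome 11, chromosome 8 steps up in all 4 libraries, and chromosome 6 stays below 12.9 CPM per kb in every library.

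The size of the rise on chromosome 11 was much the same in every class of region. By the authors' lists it was 0.33 over 65 WT-specific regions, 0.29 over 2341 DKO-specific and 0.31 over 1430 shared regions on the log2 scale. By length it ran from 0.29 under 1 kb to 0.31 at 1 to 5 kb. Regions over a gene start were at 0.30 and regions without one at 0.30. In each of these classes both DKO libraries lay above both WT libraries. Differences between the classes were not tested. Placing each chromosome on its own total left 0 of the 13 windows called by edgeR, with 8 of all 273 windows at an unadjusted p under 0.05.

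The shift of chromosome 11 was visible across its single regions. Of 18938 regions with enough counts to test, both DKO libraries lay above both WT libraries at 3259 (17.2%) and below both at 3331 (17.6%). On chromosome 11 they lay above at 758 of 1672 (45.3%) and below at 68 (4.07%). The median log2 fold change there was 0.31, with an interquartile range from 0.08 to 0.52, against -0.03 on all other chromosomes. An unadjusted p under 0.05 was reached by 288 higher and 3 lower regions of chromosome 11, and 1 passed after adjustment over all regions.

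**Figure D3:**
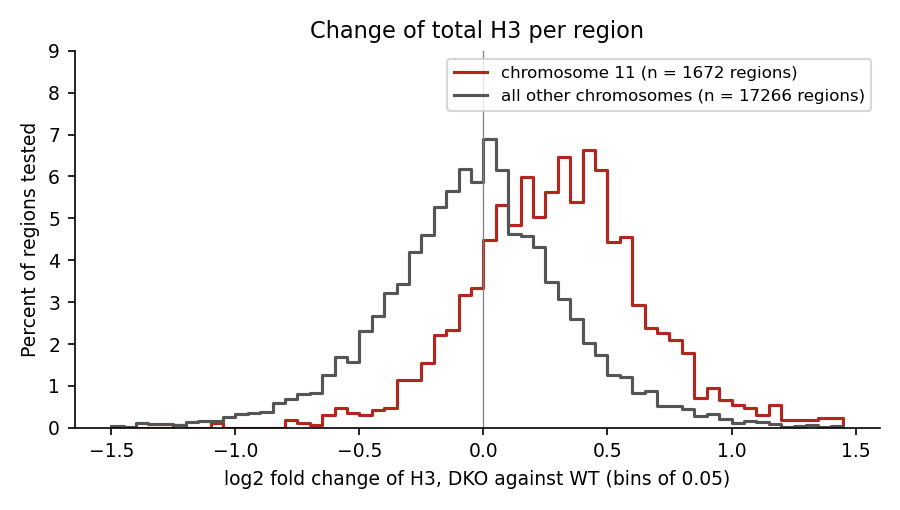
Share of tested regions (y axis, percent) by log2 fold change of H3 in DKO against WT (x axis, bins of 0.05), for chromosome 11 and for all other chromosomes; 70 regions beyond 1.5 in either direction are not drawn. The whole distribution of chromosome 11 is shifted, with a median of 0.31 against -0.03.

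H3K27me3 over the same regions moved the same way on chromosome 11. Relative to the reference autosomes, its level was 0.913 to 0.988 in the 5 WT libraries, with replicate 3 the highest and the rest at 0.913 to 0.919. The DKO library from clone 4 stood at 1.03 and the 3 from clone 13, the clone of the H3 libraries, at 1.20 to 1.22. The clone 4 library was thus above every WT library and below every clone 13 library. The H3K27me3 log2 fold change of the chromosome was 0.25 with SE 0.053 (edgeR adjusted p = 7.08e-05), beside 0.30 for H3. That fit counts the 3 libraries of clone 13 as separate replicates, so its p does not measure the spread between clones. No H3 library of clone 4 was used here.

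Chromosome 8 changed level along its length in both genotypes. The place of the step, at 44 Mb, was chosen after its values were seen, so the values on either side are a description. Its 505 regions before the step held 12.3 and 12.6 CPM per kb in WT and 12.4 and 12.2 in DKO, 0.979 to 1.00 times the reference autosomes. Its 1892 regions after it held 19.06 and 18.99 in WT and 18.5 and 18.9 in DKO, 1.50 to 1.52 times these autosomes. The step was present in all 4 libraries, and the genotypes differed by -0.02 on the log2 scale on both sides. For the whole chromosome the log2 fold change was -0.022, with an SE of 0.015 (edgeR adjusted p = 0.247). H3K27me3 on chromosome 8 was 1.20 to 1.24 times the reference autosomes in all 9 libraries.

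Chromosome 6, which carries Rosa26 and 24049 of the regions, held slightly less H3 in DKO, except for 1 stretch. It held 12.2 and 12.3 CPM per kb in WT and 12.0 and 11.9 in DKO, a log2 fold change of -0.040 and an SE of 0.011 (edgeR adjusted p = 0.00828). On this scale the reference autosomes themselves had a log2 ratio of -0.023, so part of the value was shared with them. Relative to these autosomes chromosome 6 stood at 0.972 and 0.977 in WT and at 0.966 and 0.960 in DKO. The windows at 90, 110, 120 and 140 Mb fell, by 0.067, 0.074, 0.053 and 0.076 on the log2 scale. The window at 60 to 70 Mb, named here after its values were seen, rose from 11.1 and 11.2 CPM per kb in WT to 12.0 and 11.8 in DKO, a log2 fold change of 0.093 and an SE of 0.025 (edgeR adjusted p = 0.00313). In that window H3K27me3 fell by 0.20 on the log2 scale (edgeR adjusted p = 0.00137), so the antibodies moved in opposite directions there. The fall of H3K27me3 was not particular to it. Over the 15 windows of chromosome 6 H3K27me3 ran from -0.25 to -0.057, with a median of -0.16. The next window, at 70 to 80 Mb, was at 0.048 and did not pass (edgeR adjusted p = 0.0986). DESeq2 called none of these windows, its 13 calls being those of chromosome 11, with 16 of all windows at an unadjusted p under 0.05. With scaling that left out chromosomes 6, 11 and X, edgeR did not call the fall at 120 Mb. On that scaling it did call the window at 70 to 80 Mb, at 0.067. By edgeR the rise at 60 to 70 Mb was lost without replicate 1 of WT and with shared regions alone. The fall at 110 Mb was lost without replicate 2 of WT, and those at 90, 120 and 140 Mb without replicate 1 or replicate 2 of WT. The fall at 140 Mb was lost without replicate 2 of DKO as well.

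Placing chromosome 6 on its own total kept the contrast along it. The window at 110 to 120 Mb then stood at -0.035 (edgeR adjusted p = 0.0304), and those at 60 and 70 Mb at 0.13 and 0.088 (both edgeR adjusted p = 0.00586). These 3 were the only windows of any chromosome called on that scale. Over 60 to 80 Mb together the level was 0.881 and 0.888 times the reference autosomes in WT and 0.946 and 0.933 in DKO. From 80 Mb on it was 0.991 and 0.996 in WT and 0.972 and 0.969 in DKO. The genotypes did not overlap in either stretch, and their order was opposite.

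Outside chromosomes 6 and 11 the only windows called were 2 that fell. The window at 30 to 40 Mb of chromosome 17 held 18.1 and 17.3 CPM per kb in WT and 17.0 and 15.5 in DKO, at -0.13 with SE 0.029 (edgeR adjusted p = 0.000123). That call was lost when the ribosomal region described further on was left out, and so was that of chromosome 17. The window at 90 to 100 Mb of chromosome 7 held 13.4 and 14.0 in WT and 12.7 and 12.8 in DKO, at -0.10 with SE 0.035 (edgeR adjusted p = 0.04999), just inside the threshold, and its call too was lost without the ribosomal region. Both calls were also lost by DESeq2 and without replicate 1 of WT or replicate 2 of DKO. The chromosome 7 window was in fact lost with any 1 library left out. It was also lost with median-ratio size factors, with shared regions alone and with scaling that left out chromosomes 6, 11 and X.

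By the authors' lists, H3 over all chromosomes differed little between genotypes. WT-specific regions held 12.9 and 13.0 CPM per kb in WT and 12.9 and 12.6 in DKO, a log2 ratio of -0.023. DKO-specific regions held 14.5 and 14.5 in WT and 14.8 and 14.6 in DKO, a log2 ratio of 0.025. That list includes the region of highest H3 level, of 392 bp on chromosome 2 and described further on. It alone held 4495 and 4492 counts in WT and 3845 and 4361 in DKO, and it raises the level of the list. Shared regions held 12.6 in both WT libraries and 12.6 in both DKO libraries, a log2 ratio of -0.0015. Only for the DKO-specific list did the genotypes not overlap, with an exact permutation p of 0.333, the smallest possible here, against 0.667 for the others.

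Chromosome 11 holds 2341 of the DKO-specific but 65 of the WT-specific regions. Off chromosomes 6 and 11 the log2 ratios were -0.020 for WT-specific, -0.023 for DKO-specific and -0.024 for shared regions, so the 3 lists were nearly alike there and the DKO-specific list changed sign. On chromosome 6 they were -0.027, -0.034 and -0.044 in the same order.

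On the reference autosomes, regions called in 1 genotype alone held more H3 per kb than shared regions in all 4 libraries. The ratio to shared regions there was 1.13 and 1.14 in WT and 1.15 and 1.11 in DKO for the WT-specific list. It was 1.11 and 1.12 in WT and 1.12 and 1.11 in DKO for the DKO-specific list. The lists differ in length, with medians of 417, 451 and 1334 bp. Among regions under 1 kb the ratios were 1.06 and 1.06 in WT and 1.08 and 1.04 in DKO for WT-specific regions, and 1.04 to 1.06 for DKO-specific regions. The genotypes overlapped in each of these ratios. Over all chromosomes the order was not the same at every length. The lists also differ in chromosome there, with 7698 of the 10898 WT-specific regions on chromosome 6. The part of the chromosomes in this order was not tested. WT-specific regions of 1 to 5 kb held 12.1 and 11.9 CPM per kb in WT and 11.9 and 11.7 in DKO. Shared regions of that length held more, 12.6 in all 4 libraries. DKO-specific regions of that length held 13.4 and 13.3 in WT and 13.9 and 14.1 in DKO. On the reference autosomes alone they held 13.13 and 13.14 in WT and 12.70 and 13.10 in DKO, so they were not higher in DKO there. Under 1 kb and over all chromosomes, WT-specific regions lay above or below shared regions depending on the library.

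H3 per kb was highest in the shortest regions. On the reference autosomes it was 13.8 ± 0.0675 CPM per kb (SD, n = 2) in WT and 13.5 ± 0.0868 (SD, n = 2) in DKO under 1 kb. From 1 to 5 kb it was 12.5 and 12.4, from 5 to 10 kb 12.2 and 12.0, and at 10 kb or more 11.8 and 11.6 (means of WT and DKO). The order of the classes was the same in both genotypes. Reads crossing region edges were not corrected for, and their part in this order was not tested. Over all chromosomes the log2 ratio of DKO to WT ran from -0.0026 under 1 kb to 0.0053 at 10 kb or more (exact permutation p from 0.333 to 1, two-sided, 0.333 being the smallest possible).

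Regions that contain a gene start held slightly less H3 than other regions of their length class, an order that depended on how a start was counted in all classes but the longest. Start regions were also longer on average within a class, so length and start moved together. On the reference autosomes, 2282 start regions of 1 to 5 kb covered 6715 kb, while 6917 other regions covered 13038 kb. Starts of active and Polycomb-bound genes are often rich in CG dinucleotides and can hold fewer nucleosomes. Over all chromosomes, start regions held 0.955 and 0.955 times the level of other regions in WT and 0.963 and 0.955 in DKO at 1 to 5 kb. At 10 kb or more the ratios were 0.947 and 0.937 in WT and 0.922 and 0.922 in DKO. The genotypes did not overlap in that class (exact permutation p = 0.333, the smallest possible), and they overlapped in the other 3. From 5 to 10 kb the ratios were 0.989 and 0.994 in WT and 0.995 and 0.989 in DKO. Under 1 kb they were 0.956 and 0.999 in WT and 0.959 and 0.971 in DKO. When a region needed only to touch the stretch between 2000 bp before and 1000 bp after a start, the ratios were 0.989 and 0.989 in WT and 1.005 and 1.008 in DKO under 1 kb. At 1 to 5 kb they were then 0.997 and 0.997 in WT and 1.02 and 1.004 in DKO, and from 5 to 10 kb 1.009 and 0.998 in WT and 1.02 and 1.005 in DKO. So these ratios lay on both sides of 1, and under 1 kb and at 1 to 5 kb both DKO libraries were above both WT libraries (exact permutation p = 0.333). These ratios take in chromosome 11, where H3 was higher in DKO, and its part in them was not tested. At 10 kb or more they stayed below 1, at 0.946 and 0.962 in WT and 0.934 and 0.931 in DKO.

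**Figure D4:**
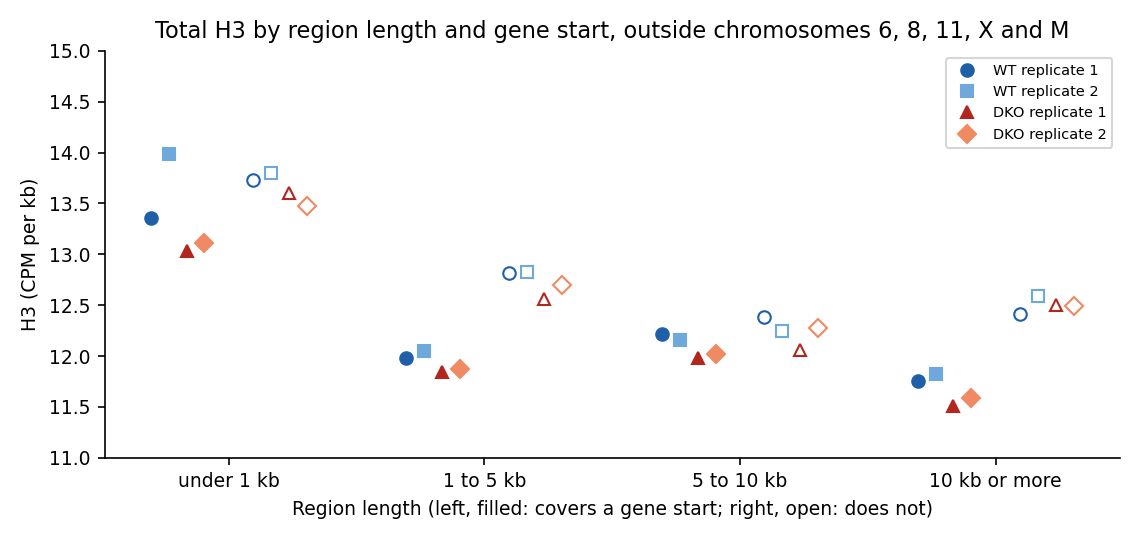
H3 level (CPM per kb, y axis, which does not start at 0) by region length (x axis) outside chromosomes 6, 8, 11, X and M, 1 point per library, filled for regions over a gene start and open for the rest. Levels are highest under 1 kb, and start regions of 1 to 5 kb and of 10 kb or more lie below the other regions in all 4 libraries.

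The amount of H3K27me3 in a region went with little difference in H3. Regions of 1 to 5 kb on the reference autosomes were put in 5 equal classes by their mean H3K27me3 level in WT, whose medians ran from 6.63 to 14.9 CPM per kb. H3 in WT was 12.4, 12.5, 12.7, 12.6 and 12.5 CPM per kb from the lowest to the highest class, and in DKO 12.1, 12.3, 12.5, 12.5 and 12.4. Mean length rose from 1528 to 3141 bp across these classes, so length and mark moved together. H3 stayed nearly level across the classes in both genotypes.

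Of the 18938 regions tested singly, 4 passed (0.0211% called), 1 higher (0.00528%) and 3 lower (0.0158%). An unadjusted p under 0.05 was reached by 646 higher (3.41%) and 522 lower regions (2.76%). DESeq2 called 0, with 92 at an unadjusted p under 0.05. The 4 calls are therefore calls of edgeR, and with replicate 1 of WT left out edgeR called 0, with 1053 at an unadjusted p under 0.05.

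The region of smallest p covers the starts of CT010467.1 and CT010467.2 in the deposited promoter table, at the RefSeq pseudogene Rn18s-rs5 of 18S ribosomal RNA (mm10 chr17:39842973-39848922). It held 352 and 271 CPM per kb in WT and 278 and 168 in DKO. The second WT library lay below the first DKO library, so the genotypes overlapped. Its log2 fold change was -0.50, with an SE of 0.089 (edgeR adjusted p = 0.00165), and H3K27me3 there fell by 1.23. Ribosomal DNA is present in many copies, so reads of other copies may map to it, and the value is uncertain. Without replicate 2 of DKO the H3 value was -0.15 (edgeR adjusted p = 0.831), and without replicate 1 of WT it was -0.28 (edgeR adjusted p = 0.783). Without replicate 1 of DKO it was -0.88, which still passed.

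The other 2 falls rest on few counts. A region within Plxna4, a receptor of the plexin family for semaphorin signals (mm10 chr6:32259264-32262593), held 16.5 and 17.6 CPM per kb in WT and 6.29 and 6.11 in DKO, from 35 and 41 counts against 11 and 15. Its log2 fold change was -1.46, with an SE of 0.31 (edgeR adjusted p = 0.0371). A region within the predicted gene Gm15498 (mm10 chr5:137685384-137686617) held 21 and 18 counts in WT and 3 and 4 in DKO, a log2 fold change of -2.36 and an SE of 0.51 (edgeR adjusted p = 0.0371). The genotypes did not overlap at either region, which was a condition of the rule for named regions. Both DKO libraries lay below both WT libraries at 17.6% of all regions tested. H3K27me3 there was at -0.10 and -0.01 on the log2 scale and did not pass. Leaving out any 1 library ended both calls, and so did placing each chromosome on its own total (edgeR adjusted p = 0.07 for both).

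The next rises by p did not pass, and all but 1 lie on chromosome 11. A region within Etv4, an ETS transcription factor induced by FGF signalling, held 10.4 and 11.6 CPM per kb in WT and 21.9 and 20.0 in DKO, a log2 fold change of 0.92 (edgeR adjusted p = 0.0809). H3K27me3 rose there by 1.28 on the log2 scale (edgeR adjusted p = 2.30e-18). The start of Rasd1, a small GTPase induced by dexamethasone, held 9.74 and 6.52 in WT and 22.1 and 18.5 in DKO, at 1.31 (edgeR adjusted p = 0.155). The start of Ppm1e, a protein phosphatase, held 12.1 and 13.7 in WT and 21.3 and 20.9 in DKO, at 0.70. A region within the kinesin gene Kif19a was at 0.52. The exception, within Epb41l4b on chromosome 4, was at 1.62 from 6 and 9 counts in WT and 23 and 21 in DKO. These 5 regions were picked among those with both DKO libraries above both WT libraries, so their lack of overlap is no result. Such regions made up 17.2% of all tested and 45.3% of those on chromosome 11.

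With a stricter filter of 20 counts in every library, 6 of 5035 regions passed, and 5 of them were rises on chromosome 11. Among them were the regions of Etv4, Kif19a and Ppm1e and, outside the rule for named regions, an intergenic region at 1.05 on the log2 scale. The falls that came next by p, all not passing, were intergenic regions on chromosomes 6, 8 and 17 and one within Gm31718 on chromosome 8, at -1.17 to -1.79.

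**Figure D5:**
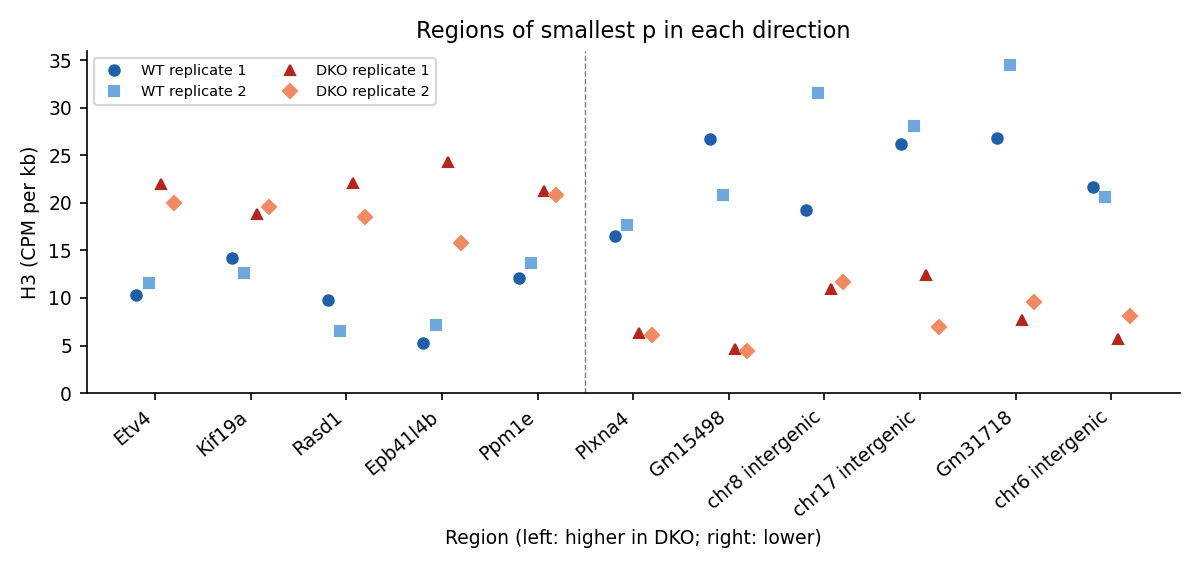
H3 level (CPM per kb, y axis) in each library at 5 of the 6 rises and at the 6 falls of smallest p among the regions whose genotypes did not overlap (x axis, rises left of the dashed line). Plxna4 and Gm15498 passed the test and the others did not.

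The promoters of 4 genes named for their values are shown to let the base composition be read beside H3: Ppm1e and Wnt3 on chromosome 11, where both DKO libraries were higher, and Dbx1 and Phlda2 on chromosome 7, where both were lower. Each line holds the 250 bases before the start of the gene, 5′ to 3′ on the strand of the gene, from RefSeq (GRCm38.p6), with the dinucleotide CG in capitals. The places are chr11:87358995-87359244 (minus strand), chr11:103773925-103774174 (plus strand), chr7:49636836-49637085 (minus strand) and chr7:143502525-143502774 (minus strand), in the order of the lines.
Ppm1e: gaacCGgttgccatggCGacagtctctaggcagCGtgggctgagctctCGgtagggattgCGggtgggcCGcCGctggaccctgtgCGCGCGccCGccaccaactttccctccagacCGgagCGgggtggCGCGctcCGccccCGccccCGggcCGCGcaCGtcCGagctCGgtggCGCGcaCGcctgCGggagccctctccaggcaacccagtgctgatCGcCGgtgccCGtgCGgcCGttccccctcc
Wnt3: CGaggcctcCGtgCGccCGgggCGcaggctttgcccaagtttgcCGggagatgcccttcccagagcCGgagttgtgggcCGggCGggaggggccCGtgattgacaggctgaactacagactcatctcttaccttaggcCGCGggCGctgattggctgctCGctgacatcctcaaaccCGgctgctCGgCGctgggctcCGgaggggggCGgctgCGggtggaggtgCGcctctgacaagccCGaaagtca
Dbx1: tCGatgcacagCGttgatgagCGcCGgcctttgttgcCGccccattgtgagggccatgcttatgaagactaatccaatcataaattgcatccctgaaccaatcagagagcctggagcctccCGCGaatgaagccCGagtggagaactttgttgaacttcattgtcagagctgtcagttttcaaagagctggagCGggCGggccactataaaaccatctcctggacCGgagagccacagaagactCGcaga
Phlda2: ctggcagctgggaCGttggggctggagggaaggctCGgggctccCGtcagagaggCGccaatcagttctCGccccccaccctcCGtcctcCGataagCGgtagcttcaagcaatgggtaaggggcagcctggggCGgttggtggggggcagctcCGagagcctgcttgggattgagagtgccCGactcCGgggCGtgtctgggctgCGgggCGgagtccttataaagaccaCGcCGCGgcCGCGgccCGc

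CG was searched as the letters CG, which read the same on both strands. The 4 windows hold 32, 22, 12 and 21 of them. Of all 32851 RefSeq promoters, 4.58% hold as many as Ppm1e or more, 14.8% as many as Wnt3, 33.5% as many as Dbx1 and 16.3% as many as Phlda2. In the whole RefSeq window of 300 bases, promoters inside a region had a median of 15, against 7 for all promoters. Phlda2 and Wnt3 are thus close in CG number. Wnt3 lies on chromosome 11, where H3 was higher in DKO along the whole length, and neither gene passed the test. H3 was counted over the whole region around each start and not over these windows. Whether CG number goes with the change in H3 was not tested.

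Wnt3, which encodes a secreted ligand of the Wnt pathway, held 11.2 and 11.5 CPM per kb over its start in WT and 15.6 and 15.3 in DKO, a log2 fold change of 0.44 and an SE of 0.17 (edgeR adjusted p = 0.662). Dbx1, a homeobox factor of ventral interneurons, held 11.9 and 13.3 in WT and 6.27 and 10.6 in DKO, at -0.52. Phlda2, an imprinted gene that limits placental growth, held 15.8 and 15.9 in WT and 8.06 and 12.3 in DKO, at -0.59. The genotypes did not overlap at these 3 regions. The DKO libraries differed from each other by more than the WT libraries did at Dbx1 and Phlda2.

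Regions over the Hox clusters are the longest shared regions. Hox genes encode the homeobox factors that set position along the body axis. The HoxB region (mm10 chr11:96249272-96377726) held 11.8 and 12.2 CPM per kb in WT and 15.3 and 14.3 in DKO, a log2 fold change of 0.30 and an SE of 0.078 (edgeR adjusted p = 0.155). The nearby Hoxb13 region was at 0.26. The HoxA region on chromosome 6 held 12.0 and 12.2 in WT and 11.6 and 11.7 in DKO, at -0.062. The HoxC region on chromosome 15 was at -0.035 and the HoxD region on chromosome 2 at -0.11. None of these 5 passed, and differences between the clusters were not tested. The HoxB region did pass with replicate 1 of DKO left out (0.26, edgeR adjusted p = 0.0214) or replicate 2 of DKO (0.36, edgeR adjusted p = 9.5e-06), and not without either WT library. On the total of chromosome 11 the HoxB region stood at 0.0005. H3K27me3 in DKO was at -0.37, -0.34 and -0.39 over HoxA, HoxC and HoxD and at -0.03 over HoxB.

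Gene lists of developmental regulators and other groups showed 0 calls by edgeR, against 0.0211% of all regions, and DESeq2 called 0 regions in all. The Hox list had a tested region for 33 of 34 genes, in 8 distinct regions, with 2 higher and 0 lower at an unadjusted p under 0.05, both on chromosome 11. Of all regions tested, 3.41% were higher and 2.76% lower at that level. Of 46 distinct regions over neural regulators, 3 were higher and 2 lower at that level, with a median log2 fold change over the 47 genes of -0.03. Of 38 over mesoderm and endoderm regulators, 2 were higher and 0 lower (median -0.0004), and of 37 over signalling ligands and receptors, 3 were higher and 0 lower (median 0.07). Of 16 over imprinted genes, 2 were higher and 1 lower (median 0.03). Among the higher regions of these lists, those of Otx1, Tlx3, Tbx2, Hand1, Wnt3, Wnt3a and Grb10 lie on chromosome 11. Those of Neurog3, Sfrp5 and Cdkn1c do not. The median of all regions tested was -0.0004.

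Within the lists the members on chromosome 11 stood higher than the rest. The median was 0.38 for 3 neural regulators, 0.10 for 5 mesoderm and endoderm regulators and 0.35 for 4 signalling genes, against -0.03, -0.01 and 0.01 for the members elsewhere. Otx1, a homeobox factor of the forebrain, held 9.89 and 10.8 CPM per kb in WT and 14.5 and 13.4 in DKO, at 0.42. Hand1, a factor of the heart and trophoblast, held 12.8 and 13.0 in WT and 14.4 and 17.6 in DKO, at 0.33. Tbx2, a T-box factor, was at 0.31 and Wnt3a at 0.43. The genotypes did not overlap at these 4 regions, and none passed.

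The named members of the remaining lists did not pass either. Cdkn1c, an imprinted inhibitor of the cell cycle on chromosome 7, held 12.5 and 11.8 CPM per kb in WT and 17.5 and 14.4 in DKO, at 0.37. Among pluripotency genes, of which 4 of 20 had a region, Prdm14 was at 0.30 and Esrrb at -0.23. Khdrbs2, the one of 16 SAFB and nuclear matrix genes with a region, was at 0.14. Nap1l5, the one of 26 histone and nucleosome assembly genes with a region, was at 0.32. The 20 housekeeping genes had none. Expression was not measured here.

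A few regions held far more H3 than the rest. In the mean of the 4 libraries, 6 regions exceeded 100 CPM per kb and together held 0.918% of all H3 counts. The highest, a DKO-specific region of 392 bp outside any gene (mm10 chr2:98664938-98665329), held 17979 and 16395 CPM per kb in WT and 18681 and 15091 in DKO. The genotypes overlapped there. A region within Sfi1 at the start of chromosome 11 held 763 and 776 in WT and 807 and 769 in DKO, and a second one 524 and 504 in WT and 427 and 454 in DKO. At the first of these the genotypes overlapped, and at the second both DKO libraries were lower. The others were the ribosomal region and regions within LOC100504180 and Cmss1.

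Among regions of 1 kb or more, the next 4 after the ribosomal one in level were intergenic, on chromosomes 1, X and 4. The one on chromosome 1 held 56.4 and 58.5 CPM per kb in WT and 57.9 and 58.9 in DKO. The lowest 5 were within Gm52429, over the starts of Gria3 and Frmpd4, all on chromosome X, within Cntfr and over the start of Gm3411. Each held 8 counts or fewer in any library, so H3 differences there were not detectable at this depth.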

How the data were processed

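The authors deposited tables of raw read counts, with no normalization, over 1 set of regions. The submitters' processing notes name build mm10 and, without roles, featureCounts, Subread, bedtools, MACS2 and Bowtie2. How regions were called was not given in the sources used here. Column names carry the tags b6 and q30, which the labels do not explain, so the counts may cover 1 parental allele or both.

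Counts of the 4 H3 libraries, grouped by genotype label, entered edgeR 4.0.16 (R 4.3.3, quasi-likelihood F test, two-sided, no covariate), per region, per 10 Mb window by region midpoint and per chromosome. Calls have a Benjamini-Hochberg adjusted p under 0.05. filterByExpr (minimum count 10, minimum total 15) kept 18938 regions, 32.7% of all, with 72.5% of the counts. Scaling was by TMM over these, applied to all sums. The SE is the size of the log2 fold change divided by the root of F. Levels use library totals over all regions, scaled by TMM. H3K27me3 counts were fitted in the same way, apart from H3. Sums without a fit were compared by exact permutation over 6 groupings. DESeq2 1.42.0 was an alternative. The tests were checked on simulated counts. Depth limits single regions: the median SE of a log2 fold change was 0.37.

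A region over a gene start contains a start from the deposited promoter table. Other regions were placed within genes of RefSeq GRCm38.p6. Named regions were the 6 of smallest p in each direction, among regions whose genotypes did not overlap, filled up with regions not passing; 1 of the rises is not reported here. Also named were the 6 called windows of largest change in each direction, the 5 highest, 5 lowest and 5 longest shared regions and the 2 members of largest change per gene list. The members, lists and rules were chosen with earlier results of these data known. Figures used Python 3.11.15, pandas 2.3.3 and matplotlib 3.10.9.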

Additional observations from a re-analysis of the deposited data

How the results depend on the processing

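The rise of chromosome 11 passed under every alternative run for chromosomes, and its 13 windows of 10 Mb were all called under every alternative except the total of each chromosome. Counts of calls moved more. Regions (4 called) gave 0 by DESeq2, 2 with no filter, 1 with each chromosome on its own total (chosen after seeing the data) and 0 to 4 with 1 library left out. Windows (20 called) gave 13 by DESeq2, 33 at 5 Mb, 13 at 20 Mb and 3 on the total of each chromosome. Chromosomes (5 called) gave 2 by DESeq2, 3 with library totals, 3 with median-ratio size factors, 1 with TMM off chromosomes 6, 11 and X, 1 with shared regions alone and 1 with any 1 library left out.

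With the replicate number as a block, 5 regions, 26 windows and 2 chromosomes (11 and 9) were called, the fifth region being HoxB. Libraries of the same number share a letter (o or n) in their column names, which the labels do not explain, so a pairing is not established. The correlation of same-numbered deviations was -0.011 over regions and 0.13 over windows.

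The log2 ratios of the lists and length classes are small beside their changes of scale. With TMM off chromosomes 6, 11 and X they were 0.044 for DKO-specific and 0.018 for shared regions, and 0.017, 0.020, 0.024 and 0.025 for the length classes from short to long. Without chromosomes 6 and 11 they were -0.023 and -0.024, and -0.025, -0.022, -0.027 and -0.024. As a median over regions they were -0.012 for shared regions and -0.026 at 10 kb or more. With 1 library left out they ran from -0.037 to 0.0081 for WT-specific, from 0.019 to 0.047 for DKO-specific, from 0.0048 to 0.017 for shared, from -0.0095 to 0.021 under 1 kb, from 0.0081 to 0.02 at 1 to 5 kb, from 0.0085 to 0.022 at 5 to 10 kb and from 0.013 to 0.027 at 10 kb or more. With a start window of 2000 bp upstream to 1000 bp downstream, the ratio of start to other regions, DKO minus WT, was 0.013 at 1 to 5 kb and 0.0072 at 5 to 10 kb. The cause was not tested.

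H3 was counted only over H3K27me3 regions, without an input and in 1 DKO clone. At a median of 6 counts per region, single regions show only large changes, while sums over windows and chromosomes have smaller SEs. The calls of windows and chromosomes off chromosome 11 depended on the scaling, the tool or the libraries used.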

Other observations

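The number of CG dinucleotides in the promoter went with small differences in H3 over start regions. Among start regions of 1 to 5 kb on the reference autosomes, the WT mean was 12.3 CPM per kb where the RefSeq promoter window of 300 bases richest in CG held fewer than 10 CG, 11.9 from 10 to below 20, 12.0 from 20 to below 30 and 11.7 at 30 or more. The DKO means were 11.8, 11.8, 11.9 and 11.7 in the same order. From 5 to 10 kb the WT means were 12.9, 12.05, 12.07 and 12.2 and the DKO means 12.5, 11.8, 11.8 and 12.2. At 1 to 5 kb the class richest in CG was thus the lowest, and from 5 to 10 kb the class poorest in CG was the highest, with the richest above the middle classes. These are descriptions over 417, 418, 283 and 242 regions of 1 to 5 kb and 117, 178, 194 and 280 of 5 to 10 kb, with no test. At 1 to 5 kb the 417 regions poorest in CG covered 1093 kb and the 242 richest 856 kb. Mean length thus rose with CG in that class.

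Chromosome M held 4 regions, with 95 and 143 counts in WT and 102 and 159 in DKO, a log2 fold change of 0.22 with an SE of 0.31 (edgeR adjusted p = 0.538). The genotypes overlapped there.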
